A study of Homo sapiens with 18 samples.

Results

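The results below compare MSC-hTERT cells expressing the fusion SRF-RELA with cells carrying pMSCV, across every gene counted. The libraries were taken by their labels: 6 of the 18 libraries of the study belong to this comparison, 3 labelled SRF-RELA and 3 labelled pMSCV. MSC-hTERT is a line of human mesenchymal stem cells immortalized with hTERT, and the pMSCV group (named after a retroviral vector) is read here as the empty vector control. The other 12 libraries, 3 for each of SRF, SRF-FOXO1, SRF-ICA1L and SRF-PDGFRB, entered the model so that all 6 groups shared 1 estimate of the spread. All groups share the line and one culture medium, which contained serum, FGF-2, heparin and ascorbic acid. The labels give no time after transduction, do not say how many clones a line came from, and do not say whether libraries numbered 1, 2 and 3 came from separate cultures, so p-values measure the spread between these libraries only. Which stretches of SRF and RELA the fusion holds is not given in the sources used here.

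SRF, the serum response factor, recognises a DNA element called the CArG box. It drives muscle contractile and cytoskeletal genes together with cofactors of the myocardin family (MYOCD, MRTFA, MRTFB), and immediate early genes together with ternary complex factors (ELK1, ELK3, ELK4). RELA, also called p65, is a subunit of NF-kB. Inhibitors such as NFKBIA hold it in the cytoplasm until a signal releases it, after which it activates chemokine, cytokine and adhesion genes through the transactivation domain near its C-terminus. SRF-RELA belongs to a family of SRF fusions described in myoid soft tissue tumors, as the study's title states.

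Total counts in the 6 libraries ran from 22512032 to 28877142, and 27008 to 28344 genes had at least 1 count. FN1 was the most abundant gene in each of the 6 libraries, at 3.37% to 5.81% of the counts, and mitochondrial transcripts took 4.68% to 5.28%. The 8 surface markers of mesenchymal stem cells summed to between 4059 and 5212 CPM (a library's counts scaled to the same total in every library) in pMSCV and to between 4444 and 4978 CPM in SRF-RELA. With all libraries, edgeR called 0 of 8, with or without the replicate number as a block (1 had an unadjusted p under 0.05). The DESeq2 Wald test called 1, and so did the blocked edgeR fit without replicate 2. Of all genes tested, edgeR called 0.183% without the block and 0.971% with it. A count of 0 in a list of 8 is near those shares. THY1 had the highest log2 fold change of the 8, at 1.19. Some markers of other cell types were present. The 10 epithelial markers summed to between 56.3 and 96.5 CPM in pMSCV and to between 79.3 and 157 CPM in SRF-RELA, most of it KRT8 and KRT18, and endothelial markers are described further on. The 10 blood cell markers summed to between 5.03 and 6.89 CPM in pMSCV and to between 6.53 and 8.38 CPM in SRF-RELA. For the 10 neural markers these sums were 8.35 to 13.95 CPM and 9.57 to 12.7 CPM. Of these, 3 blood and 5 neural markers passed the count filter. Among them CD34 had a log2 fold change of 1.38 and SNAP25 one of -2.59, and none was called in either edgeR fit. The markers that did not pass the count filter were low: EPCAM, CLDN3, CLDN7, KRT19, ESRP1 and GRHL2 each stayed at or under 0.312 CPM, PTPRC, CD68, ITGAM and MS4A1 at or under 0.277 CPM, and CD3E, HBB, OLIG2 and ELAVL4 were at 0 in all 6. Replicate 2 stood apart on both sides of the comparison. In pMSCV replicate 2, 28 of 31 NF-kB target genes were at their lowest level of the 3 control libraries, and SRF-RELA replicate 2 held the highest level of many of the genes that rose.

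The construct genes were read first. RELA measured 95.6, 95.3 and 89 CPM in pMSCV replicates 1, 2 and 3 and 267, 234 and 268 CPM in SRF-RELA. The 2 groups differed by 1.51 on the log2 scale (SE 0.081, edgeR adjusted p 5.78e-08; 1.89e-08 with the replicate number as a block). SRF measured 61.1, 64.4 and 57.3 CPM in pMSCV and 326, 324 and 328 CPM in the fusion libraries (log2 fold change 2.47, SE 0.24; edgeR adjusted p 0.000160). Neither gene's groups overlapped, and both levels include reads of the native gene, since counts of native and construct transcripts were not separated. The RELA level of the other groups stayed near that of pMSCV, with means of 94.5 CPM in SRF, 86.7 in SRF-FOXO1, 85 in SRF-ICA1L and 91.3 in SRF-PDGFRB. SRF was far higher in cells given SRF itself, at a mean of 945 CPM, against 326 CPM in SRF-RELA.

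Of the 18544 genes tested, 34 were called at an edgeR adjusted p under 0.05, which is 0.183% of those tested. All 34 were higher in SRF-RELA and 0 were lower. At an unadjusted p under 0.05 there were 530 higher and 180 lower genes. With the replicate number as a block, 180 genes were called (0.971% of those tested), 172 higher and 8 lower, and the 34 were all among them. In each of the 34 the lowest SRF-RELA library was above the highest pMSCV library, a separation that 14.9% of all genes tested showed in one direction or the other. Most of the 34 were nearly silent in the control: 26 had a pMSCV mean under 1 CPM, which is 76.5% of them against 23.0% of the genes tested. The level within SRF-RELA was uneven, with 25 of the 34 (73.5%) highest in replicate 2, against 26.7% of all genes tested, and 27 lowest in replicate 1. Leaving out SRF-RELA replicate 2 left 13 calls, and leaving out pMSCV replicate 2 left 16. Without SRF-RELA replicate 2 the calls of ACTG2 (edgeR adjusted p 0.101), ACTA1 (0.132), KRT17 (0.174), KRT12 (0.114), TIMP3 (0.121), DAPK2 (0.114), SLCO2A1 (0.072), DELEC1 (0.077) and DIRC3-AS1 (0.121) were lost, while those of CDH3, ITIH3, NRXN3, CMKLR1, IGFBP5, COL11A1 and PLN held. Without pMSCV replicate 2 NRXN3 was lost (0.0826), and so were ACTG2 (0.156), ACTA1 (0.244), KRT17 (0.233), KRT12 (0.132), DAPK2 (0.156), SLCO2A1 (0.104) and DELEC1 (0.104).

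**Figure D1:**
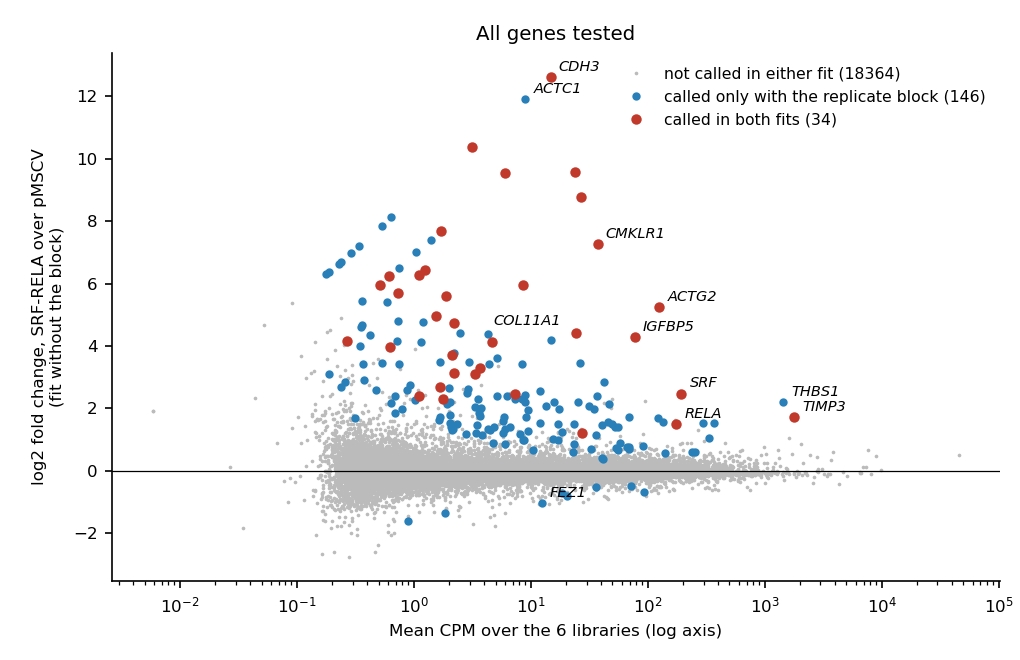
Each point is 1 of 18544 genes, with its mean CPM over the 6 libraries on a log axis and its log2 fold change between SRF-RELA and pMSCV from the fit without the block. The 34 genes called in both fits (red) and most of the 146 called only with the replicate block (blue) lie above 0, and many have a mean of a few CPM or less.

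The largest changes were in genes with almost no reads in the control. CDH3 (P-cadherin, a cell adhesion protein) had 0 counts in all 3 pMSCV libraries and 17, 50.1 and 21.5 CPM in SRF-RELA. Taking 0 counts as at most 3 counts per library, the SRF-RELA mean was at least 229-fold higher (edgeR adjusted p 0.000658). An antisense transcript, CDH3-AS1, overlaps it and was called with the block (edgeR adjusted p 0.0171), and the use of strand in counting is not given in the sources used here, so reads of the pair may have been split. ITIH3, a heavy chain of the hyaluronan-binding inter-alpha-trypsin inhibitor, had 1 count over the 3 controls and measured 3.95, 24.8 and 7.69 CPM in SRF-RELA. The ratio of the pooled counts per total was 1050, with an exact 95% counting interval from 188 to 41500. NRXN3 (neurexin 3, a synaptic adhesion protein) measured 0, 0.258 and 0.139 CPM in pMSCV and 22.8, 106.9 and 32.0 CPM in SRF-RELA, a pooled ratio of 464 (counting interval 252 to 969). Its call was lost in each of the fits that left out 1 control library (edgeR adjusted p 0.118, 0.0826 and 0.135 without replicates 1, 2 and 3), and that of ITIH3 without pMSCV replicate 1 or 3 (0.0539 and 0.0604). These intervals cover counting error only. For CDH3, ITIH3 and NRXN3 alike, SRF-RELA replicate 2 was the highest library and replicate 1 the lowest.

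CMKLR1, the receptor for chemerin, measured 0.177, 0.688 and 0.658 CPM in pMSCV and 34.8, 116.1 and 71.1 CPM in SRF-RELA (log2 fold change 7.26, SE 0.70; edgeR adjusted p 0.000254). Its call held in each of the 6 fits that left out 1 library, with an edgeR adjusted p of at most 0.00541. CCDC190 rose from 0.602, 0.731 and 0.762 CPM to 5.38, 8.20 and 6.27 CPM (log2 fold change 3.30, SE 0.35). DUSP2, a phosphatase that switches off MAP kinases, had 6 counts over the controls and 284 in SRF-RELA, a pooled ratio of 50.8 (counting interval 23.0 to 139). PTPN7, another phosphatase of MAP kinases, gave a ratio of 31.5 (15.7 to 73.8). Among the 34 were also PDGFB, a growth factor ligand of the PDGF receptors, which had 1 count in the controls and 261 in SRF-RELA, and DAPK2, a calcium-regulated kinase, at 4.18 to 7.19 CPM against 0.301 to 1.24 CPM. With the block, AGTR1, a receptor for angiotensin II, was called at 38.7, 48.4 and 61.0 CPM against 21.8, 22.5 and 25.7 CPM (log2 fold change 1.13, edgeR adjusted p 0.000300 with the block and 0.0792 without it).

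**Figure D2:**
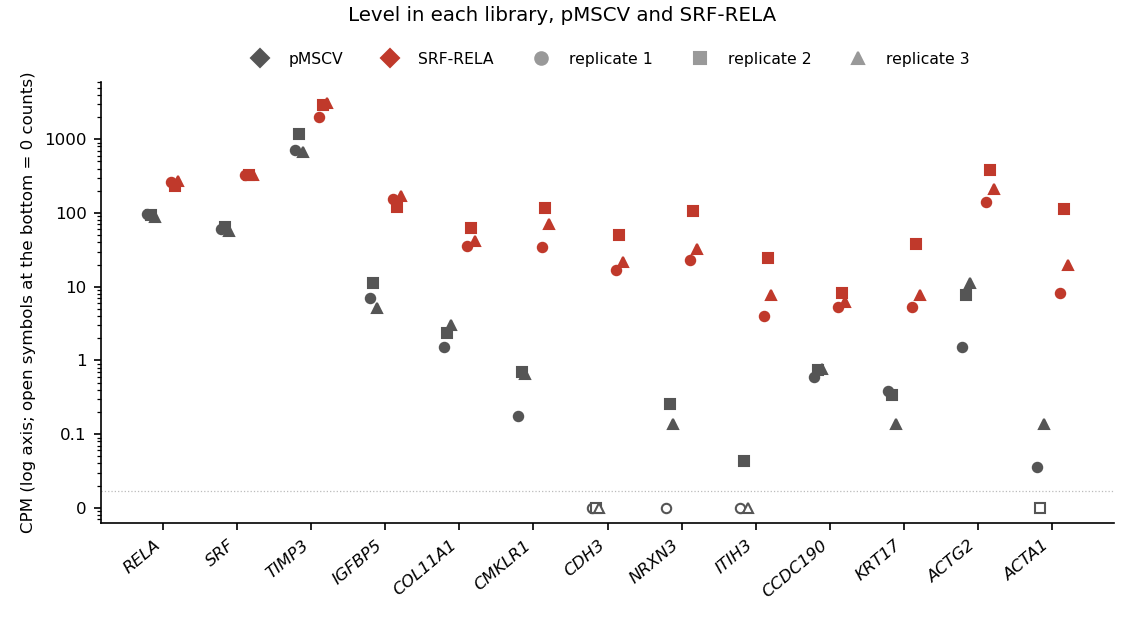
Levels of 13 genes in each pMSCV (grey) and SRF-RELA (red) library, in CPM on a log axis, with open symbols at the bottom for 0 counts and symbol shapes for replicates 1, 2 and 3. The groups do not overlap for any of the 13, and replicate 2 (square) is the highest SRF-RELA library for most of them, but not for RELA, SRF, TIMP3 or IGFBP5.

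IGFBP5, a secreted protein that binds insulin-like growth factors, measured 7.12, 11.2 and 5.16 CPM in pMSCV and 152.5, 120.6 and 168 CPM in SRF-RELA (log2 fold change 4.29, SE 0.61, edgeR adjusted p 0.00786). The call was lost without pMSCV replicate 1 (0.0939) and without pMSCV replicate 3 (0.107). Here SRF-RELA replicate 2 was the lowest of its group, unlike the genes above. Of the 5 IGF ligands and binding proteins tested, IGFBP5 was called without the block and IGFBP3 and IGFBP7 were called as well with it (edgeR adjusted p 0.00810 and 0.0421, against 0.0977 and 1 without it). By comparison, 0.183% of all genes tested were called without the block and 0.971% with it. COL11A1, a chain of a fibrillar collagen, rose from 1.52, 2.36 and 3.05 CPM to 35.6, 62.7 and 42.2 CPM (log2 fold change 4.4, SE 0.51, edgeR adjusted p 0.00141). TIMP3, an inhibitor of matrix metalloproteinases that binds to the matrix, was abundant already in the control, at 715, 1170 and 668 CPM, and measured 2017, 2959 and 3092 CPM in SRF-RELA (log2 fold change 1.72, SE 0.29, edgeR adjusted p 0.0248). Its call was kept in 2 of the 6 fits that left out 1 library, with an edgeR adjusted p of up to 0.225.

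Among the 28 collagen and matrix genes COL11A1 was the only call without the block, and THBS1 joined it with the block. The shares called over all genes tested were 0.183% and 0.971%. THBS1 (thrombospondin 1) measured 416, 695 and 474 CPM in pMSCV and 1582, 3432 and 1965 CPM in SRF-RELA, without overlap (log2 fold change 2.21, SE 0.44; edgeR adjusted p 0.0668, or 0.00278 under the block). FSIP1 lies on the opposite strand at the same locus and was also called with the block (edgeR adjusted p 0.0419), and with the use of strand in counting not given, reads of this pair too may have been split. The other major collagens were not called in either fit: COL1A1, for example, measured 6131, 6936 and 5166 CPM against 6652, 12850 and 8136 CPM, with an edgeR adjusted p of 1. The median log2 fold change of the 28 genes was 0.43, against -0.0091 over all genes tested. Without SRF-RELA replicate 2 it was 0.13, with 17 of 28 positive in place of 23, and in the blocked fit without replicate 2 it was 0.21. Of the keratins, 2 were in the set of 34. KRT17 measured 0.389, 0.344 and 0.139 CPM against 5.38, 37.7 and 7.73 CPM (log2 fold change 5.94, SE 1.1, edgeR adjusted p 0.0487), and KRT12 had 2 counts in the controls and 175 in SRF-RELA. The keratins typical of simple epithelium, KRT8 and KRT18, were not called in either fit.

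The rest of the 34 were mostly low in level. EXTL1, a glycosyltransferase of heparan sulfate synthesis, had 13 counts in pMSCV and 331 in SRF-RELA, a pooled ratio of 27.3 (counting interval 15.7 to 51.8), and its call held in each fit that left out 1 library. SLCO2A1, the prostaglandin transporter, gave a ratio of 102 (28.0 to 852). RPE65, an isomerase of the retinal visual cycle, had 0 counts in pMSCV and was at least 48.5-fold higher. NES (nestin, an intermediate filament of progenitor cells) was the one of these with a control level over 10 CPM, at 17.1, 16.5 and 17.8 CPM against 37.2, 36.5 and 40.8 CPM (log2 fold change 1.21, SE 0.22, edgeR adjusted p 0.0344). It was also even across the SRF-RELA libraries. The others included SPINT1, ARC, KLHDC8A, DELEC1, LINC01614, OACYLP, DIRC3-AS1 and 3 identifiers without a symbol.

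Further genes were called higher with the block only. F3 (tissue factor, which starts blood coagulation) measured 37.0, 51.2 and 92.2 CPM in pMSCV and 105, 206 and 242 CPM in SRF-RELA, without overlap (log2 fold change 1.7, edgeR adjusted p 0.00121 with the block and 0.394 without it). MEST, an imprinted gene of mesoderm, measured 5.88, 15.3 and 15.3 CPM against 37.1, 53.9 and 93.2 CPM (2.41, edgeR adjusted p 0.000372 and 0.266). TSPAN2, a tetraspanin, measured 0.0708, 0.559 and 0.104 CPM against 1.64, 8.80 and 3.63 CPM (4.32, edgeR adjusted p 0.000474 and 0.0792). KLHL3, an adaptor of a ubiquitin ligase, WSCD1 and ANKRD45 had log2 fold changes of 2.15, 1.20 and 3.23 with the block (edgeR adjusted p 0.000634, 0.000560 and 0.000432 with it, and 0.266, 0.0960 and 0.0524 without it). In each of these genes the 3 pairs were all higher in SRF-RELA, as the rule for naming them required.

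Contractile genes of smooth muscle rose in part. Of 24 on the list, 20 passed the count filter and 3 were called higher without the block (ACTG2, ACTA1, PLN), against 0.183% of all genes. With the block 10 were called higher, against 0.971% of all genes, and 0 were lower in either fit. The additional genes included CNN1, TAGLN, LMOD1, CSRP1, MYL9 and JPH2 (for the last 2, edgeR adjusted p 0.0213 and 0.00921 with the block and 0.718 and 0.854 without it). These counts moved with the libraries used. Fitting only the 2 groups called 0 of 20 without the block (9 with it). Leaving out 1 library called 1 of 20 without pMSCV replicate 1, 2 or 3 or SRF-RELA replicate 2, 2 without SRF-RELA replicate 3, and 4 without SRF-RELA replicate 1. With the block, 6 were called without replicate 1, 10 without replicate 2 and 2 without replicate 3. All 20 fold changes were positive. The median log2 fold change of the 20 was 1.52, against -0.0091 over all genes, and it ran from 1.09 to 1.85 in the fits without the block that left out 1 library. The 4 genes that did not pass the filter, DES, KCNMB1, HSPB6 and ITGA8, stayed at or under 0.460 CPM.

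ACTG2, the smooth muscle gamma actin, measured 1.52, 7.61 and 11.4 CPM in pMSCV and 139.8, 384 and 211 CPM in SRF-RELA (log2 fold change 5.24, SE 0.85, edgeR adjusted p 0.0243; 0.000762 with the block). Its call was kept in 2 of the 6 fits that left out 1 library, with an edgeR adjusted p of up to 0.156. ACTA1, the skeletal muscle alpha actin, had 5 counts over the controls and 3920 in SRF-RELA. Its SRF-RELA libraries were very uneven, at 8.13, 114 and 19.8 CPM, and its pooled ratio was 841 (counting interval 360 to 2590; edgeR adjusted p 0.0456, and 0.000583 with the block), and its call was kept in 1 of the 6 fits that left out 1 library. ACTC1, the cardiac alpha actin, was at 0 counts in pMSCV and at 1.82, 42.7 and 9.11 CPM in SRF-RELA, at least 139-fold higher, and was called with the block only (edgeR adjusted p 0.00121; 0.133 without it). Bases before the start of these 3 genes are shown because the element that SRF binds can be read in them. They are RefSeq sequences of build GRCh38.p14, written 5′ to 3′ on the gene's own strand and ending at the base before the start, with CArG boxes in capitals. In ACTC1 the capitals nearer the 5′ end are an NF-kB consensus match.
ACTG2, plus strand, chr2:73892758-73893007: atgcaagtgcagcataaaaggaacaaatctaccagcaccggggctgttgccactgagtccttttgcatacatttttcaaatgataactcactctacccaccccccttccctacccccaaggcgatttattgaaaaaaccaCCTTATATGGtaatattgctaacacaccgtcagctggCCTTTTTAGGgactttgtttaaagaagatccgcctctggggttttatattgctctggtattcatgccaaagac
ACTA1, minus strand, chr1:229434095-229434344: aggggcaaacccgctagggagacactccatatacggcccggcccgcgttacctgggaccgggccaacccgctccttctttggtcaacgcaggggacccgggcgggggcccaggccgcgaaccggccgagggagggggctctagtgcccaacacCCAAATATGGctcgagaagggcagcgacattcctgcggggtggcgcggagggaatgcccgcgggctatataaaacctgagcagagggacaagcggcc
ACTC1, minus strand, chr15:34795550-34795799: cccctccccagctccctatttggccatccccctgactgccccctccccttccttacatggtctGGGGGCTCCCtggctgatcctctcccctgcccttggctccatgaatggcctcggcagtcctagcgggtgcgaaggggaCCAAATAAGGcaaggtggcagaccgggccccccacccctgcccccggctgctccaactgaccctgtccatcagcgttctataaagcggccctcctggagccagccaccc
ACTG2 holds 2 CArG boxes, starting 110 and 73 bases before the start, and ACTA1 and ACTC1 hold 1 each, at 97 and 109 bases. A CArG box (its own reverse complement, so both strands are searched at once) was in 1.14% of the 27305 promoters of 250 bases in that table. The table matched 23 of the 34 called genes by symbol (67.6%), close to the 65.6% of all genes tested, and 19 of the 24 smooth muscle genes (79.2%). Both are under the 80% set for a check over a set, so none was made. Most of the matched genes held no CArG box: it was in 4 of the 23 called genes (ACTG2, ACTA1, SRF and RPE65) and in 3 of the 19 smooth muscle genes (ACTG2, ACTA1 and MYLK, which was not called). The call of SRF cannot be set beside its own promoter, since native and construct reads were not separated. A match is a description of letters, not evidence of binding.

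Among the regulators of contraction, PLN (phospholamban, which restrains the calcium pump of the sarcoplasmic reticulum) measured 0.283, 0.344 and 0.312 CPM in pMSCV and 2.09, 6.59 and 3.13 CPM in SRF-RELA (log2 fold change 3.71, SE 0.50, edgeR adjusted p 0.00327), and its call was kept in each of the 6 fits that left out 1 library. CNN1 (calponin) measured 4.21, 15.5 and 9.04 CPM against 21.3, 71.1 and 31.9 CPM. The groups did not overlap, and the ratios within same-numbered pairs were alike, which is the pattern the block takes up: its edgeR adjusted p was 0.563 without the block and 0.00100 with it. LMOD1 (leiomodin, an actin filament nucleator) behaved the same way, at 2.34, 5.97 and 2.63 CPM against 12, 33.6 and 15.8 CPM (edgeR adjusted p 0.208 and 0.00143). TAGLN (transgelin) measured 72.2, 264 and 146 CPM against 258, 658 and 399 CPM, with overlapping groups but a higher value in each pair (edgeR adjusted p 1 and 0.0146). CSRP1, an actin-associated LIM protein, measured 159.9, 227 and 206.5 CPM against 357, 790.2 and 481 CPM (0.0983 and 0.000560).

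Other defining genes of smooth muscle did not reach the threshold in either fit. ACTA2, the smooth muscle alpha actin, measured 15.4, 15.2 and 21.5 CPM in pMSCV and 49.3, 140.3 and 55.5 CPM in SRF-RELA (log2 fold change 2.31, SE 0.58; edgeR adjusted p 0.224, or 0.0558 under the block), and MYH11, the smooth muscle myosin heavy chain, measured 1.20, 0.516 and 1.21 CPM against 1.82, 22.5 and 4.22 CPM (0.294 and 0.134). In both genes the SRF-RELA libraries lay above every control, and replicate 2 was well above replicates 1 and 3. MYLK, TPM2, CALD1, LPP and PDLIM7 had log2 fold changes between 0.04 and 0.36 and were not called.

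Genes of striated muscle were mostly silent. Of 35 on the list 12 passed the filter, and MYOD1, MYF5, MYOG, PAX7, MYH6, MYH7, MYL1, TNNT3, TNNI2 and MYBPC1 had 0 counts in all 6 libraries. ACTA1, which is on both muscle lists, was called without the block, and ACTC1 and ANKRD1 were called as well with it. This made 1 and 3 calls of 12, against 0.183% and 0.971% of all genes tested. ANKRD1, a stretch-responsive repeat protein of the sarcomere and also a YAP target, measured 0.637, 10.3 and 3.12 CPM against 17.6, 96.9 and 28.6 CPM (edgeR adjusted p 0.648, and 0.00831 with the block). TTN, the giant spring protein of the sarcomere, measured 61.3, 48.2 and 51.0 CPM against 69.4, 68.8 and 62.4 CPM and was not called. The 12 genes had a median log2 fold change of 0.43.

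The general cytoskeletal targets of SRF were different in size. Of 31, 30 were tested and 0 were called in either edgeR fit or by the DESeq2 Wald test. The edgeR fits called 0.183% of all genes tested without the block and 0.971% with it. When only the 2 groups were fitted with the block, 2 of the 30 were called, both higher. At an unadjusted p under 0.05 there were 2 higher genes without the block and 6 with it. Across all 18544 genes tested these numbers were 530 and 958. The list had a median log2 fold change of 0.19, with 25 of 30 positive. ACTB measured 3246, 3445 and 3313 CPM against 3766, 4421 and 3996 CPM, without overlap (log2 fold change 0.34, SE 0.17, edgeR adjusted p 1), while the groups of ACTG1 overlapped, with a log2 fold change of -0.0026 (SE 0.11). Scaling by total count in place of TMM lowered the median of the list to 0.13 and the number of positive genes to 21. The cofactors of SRF were not called. MYOCD measured 0.106, 0.946 and 1.28 CPM in pMSCV and 0.622, 11.1 and 1.67 CPM in SRF-RELA, with overlapping groups and 1 high library (edgeR adjusted p 1, and 0.170 with the block). MRTFA, MRTFB, ELK1, ELK3 and ELK4 had log2 fold changes from -0.20 to 0.13.

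**Figure D3:**
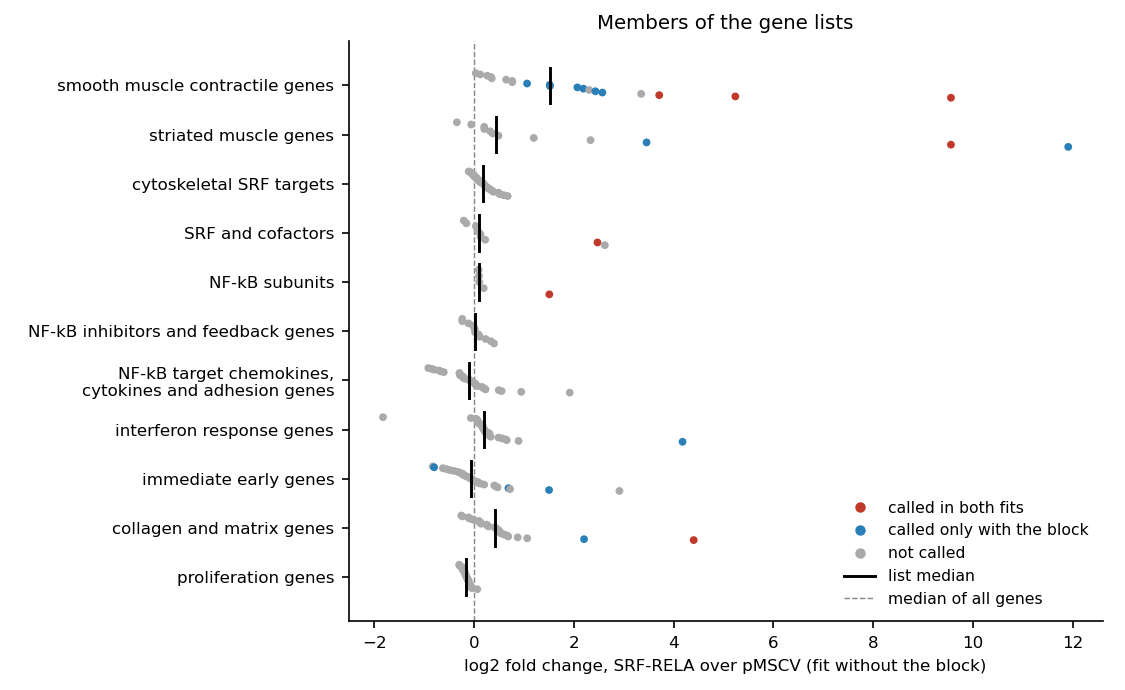
Log2 fold changes of the tested members of 11 gene lists, with a black bar at each list's median and a dashed line at the median of all genes. Smooth muscle genes have a median of 1.52 and NF-kB targets one of -0.09, and coloured points mark the genes called in both fits or only with the replicate block.

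The genes listed here as inhibitors, feedback genes or targets of NF-kB were not called in either edgeR fit. Of the 5 subunits, RELA was the 1 called, and RELB, REL, NFKB1 and NFKB2 had log2 fold changes between 0.09 and 0.20. Of the 12 inhibitors and feedback genes tested, 0 were called in either edgeR fit or by the DESeq2 Wald test, 0 had an unadjusted p under 0.05, and the median log2 fold change was 0.02. Of the 31 target chemokines, cytokines and adhesion genes tested, 0 were called in either edgeR fit or by the DESeq2 Wald test, and 1 was higher at an unadjusted p under 0.05. Their median was -0.09, and -0.13 with the block, with 12 positive and 19 negative values running from -0.91 for CXCL2 to 1.92 for CXCL10. Of all genes tested, edgeR called 0.183% without the block and 0.971% with it. Counts of 0 in lists of 12 and 31 genes are near those shares. A call that is missing does not show that these genes were the same in both groups, because their spread was wide. The median standard error over the 31 was 0.77 on the log2 scale, against 0.19 over the 12 inhibitors and feedback genes.

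NFKBIA, the inhibitor that NF-kB itself induces, measured 163.7, 75.9 and 173 CPM in pMSCV and 106.6, 136.7 and 124.6 CPM in SRF-RELA, so that the SRF-RELA range lay inside the control range (log2 fold change -0.11, SE 0.35, edgeR adjusted p 1). CXCL8, a chemokine that recruits neutrophils, measured 213, 47.2 and 508 CPM against 56.5, 394 and 142 CPM (log2 fold change -0.29, SE 0.98). SOD2, the mitochondrial superoxide dismutase, measured 1713, 330.4 and 1631 CPM against 745, 1753 and 909.9 CPM (log2 fold change -0.04, SE 0.79). In each of the 3 genes pMSCV replicate 2 was the lowest control and SRF-RELA replicate 2 the highest fusion library.

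That arrangement ran through the whole list. In the replicate 2 pair 28 of 31 targets were higher in SRF-RELA, with a median log2 ratio of 2.02, whereas 26 of 31 were lower in the replicate 1 pair and 25 of 31 in the replicate 3 pair, with medians of -0.76 and -0.79. The summed level of the 31 was 3530, 1546 and 4771 CPM in pMSCV and 2042, 4425 and 2723 CPM in SRF-RELA. Over all genes tested the median log2 ratios of the 3 pairs were -0.017, -0.11 and -0.044. Without replicate 2 of both groups and with the block, the list's median was -0.64 with 25 of 31 negative. Without replicate 3 it was 0.57 with 25 of 31 positive, and 0 of 31 were called in either case. So the direction for these targets turned with the pair, and no direction is given for SRF-RELA. What sets the replicate 2 libraries apart was not tested.

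**Figure D4:**
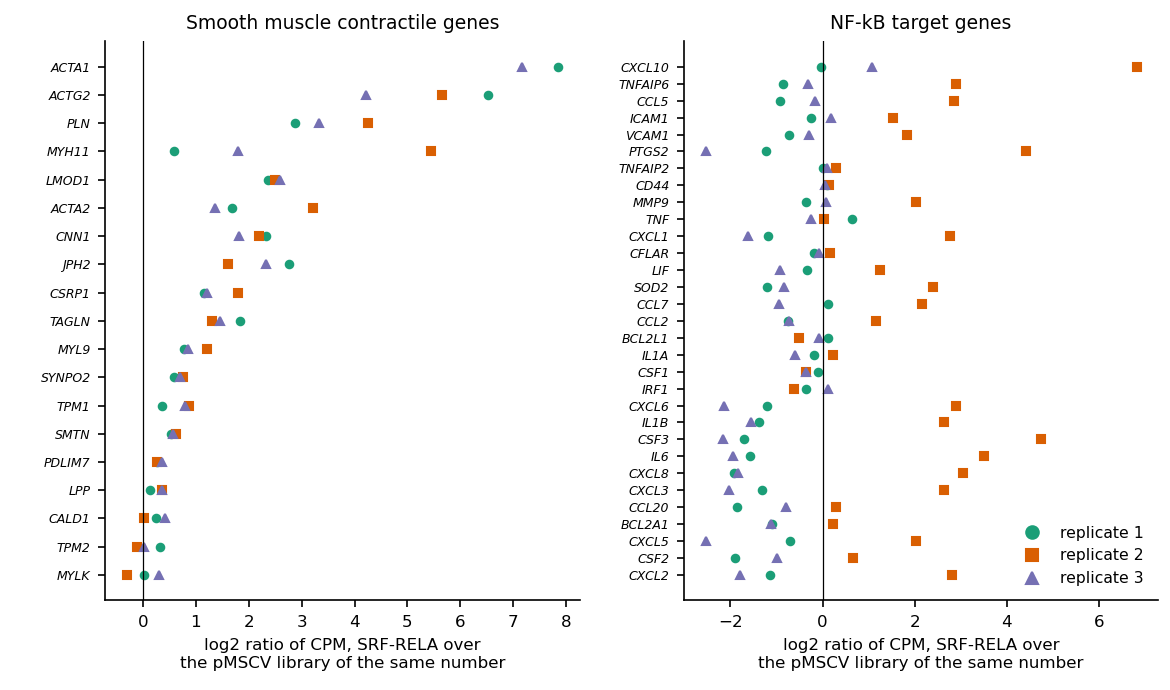
Log2 ratio of CPM between SRF-RELA and the pMSCV library of the same number, for the 20 tested smooth muscle genes except 1 that is not shown and for the 31 tested NF-kB targets, with 1 symbol per pair (pairs with 0 counts on either side are left out). In the smooth muscle genes the 3 pairs lie at or above 0 with few exceptions, while the NF-kB targets are split, with replicate 2 mostly above 0 and replicates 1 and 3 mostly below.

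Promoters of NFKBIA, CXCL1 and CXCL11 are shown for comparison with those of the actins. NFKBIA and CXCL1 (a neutrophil chemokine) carry the NF-kB consensus and were not called. CXCL11, a chemokine otherwise induced by interferon, carries an NF-kB consensus match starting 76 bases and a CArG box starting 62 bases before its start, and it was called with the block. The capitals mark NF-kB consensus matches in NFKBIA and CXCL1 (in CXCL1 a pair of matches that overlap), and in CXCL11 the NF-kB match followed by the CArG box.
NFKBIA, minus strand, chr14:35404750-35404999: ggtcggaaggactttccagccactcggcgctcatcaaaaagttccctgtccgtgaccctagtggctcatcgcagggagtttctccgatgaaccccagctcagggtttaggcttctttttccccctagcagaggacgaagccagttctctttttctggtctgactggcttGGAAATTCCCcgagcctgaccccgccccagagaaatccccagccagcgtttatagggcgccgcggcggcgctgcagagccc
CXCL1, plus strand, chr4:73869143-73869392: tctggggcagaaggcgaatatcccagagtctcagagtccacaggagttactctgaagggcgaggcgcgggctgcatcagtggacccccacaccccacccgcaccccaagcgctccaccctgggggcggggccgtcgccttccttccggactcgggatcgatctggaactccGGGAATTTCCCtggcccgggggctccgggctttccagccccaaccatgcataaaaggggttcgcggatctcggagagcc
CXCL11, minus strand, chr4:76036071-76036320: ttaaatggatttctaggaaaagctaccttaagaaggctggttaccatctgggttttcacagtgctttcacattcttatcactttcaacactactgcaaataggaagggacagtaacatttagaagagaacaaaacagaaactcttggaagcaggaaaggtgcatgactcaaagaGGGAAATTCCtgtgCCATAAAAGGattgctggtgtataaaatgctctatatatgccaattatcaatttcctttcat
The NF-kB consensus, searched on both strands, was in 9.57% of all promoters of this length, far more often than the CArG box. It was in 3 of the 23 matched genes called without the block (PTPN7, IGFBP5 and DAPK2). That is 13% of them, beside 11.5% of the matched genes tested, and here too no check over the set was made. CXCL11 measured 1.56, 0.301 and 2.98 CPM in pMSCV and 10.6, 48.9 and 25.5 CPM in SRF-RELA, without overlap (log2 fold change 4.18, SE 0.85, edgeR adjusted p 0.0792, or 0.0463 under the block). CXCL11 was the only one of 30 interferon response genes called in either fit. Its call came with the block, where 0.971% of all genes tested were called. The median of those 30 was 0.20 with 28 positive, but it was -0.15 with 5 positive in the blocked fit without replicate 2, so this direction too rests on that pair.

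Of 28 immediate early genes, 0 were called by edgeR without the block or by the DESeq2 Wald test, with 2 higher and 1 lower at an unadjusted p under 0.05. The list does not hold ARC or DUSP2, which were both called higher without the block. With the block EGR2 and DUSP5 (edgeR adjusted p 0.0419; 1 without it) were higher and FOSL1 was lower. Over all genes tested, 0.183% were called without the block and 0.971% with it. EGR2, a zinc finger transcription factor induced by growth factors, measured 21.4, 5.97 and 9.97 CPM against 46.1, 24.1 and 33.2 CPM (log2 fold change 1.5, SE 0.57; edgeR adjusted p 1, or 0.00143 under the block). FOSL1, an AP-1 subunit, measured 27.2, 24.1 and 27.0 CPM against 19.2, 9.68 and 14.8 CPM, without overlap (edgeR adjusted p 0.0437 with the block). The median of the list was -0.06, but it was 0.50 with 22 of 28 positive without pMSCV replicate 1, -0.34 with 21 negative without pMSCV replicate 2, and 0.15 with 20 positive without SRF-RELA replicate 2. By pair, 20 of 28 were higher in the replicate 2 pair, and 19 and 20 were lower in the replicate 1 and 3 pairs, so no direction is given for this list. Proliferation genes gave 0 calls of 24 in either edgeR fit or by the DESeq2 Wald test and 0 at an unadjusted p under 0.05, with a median of -0.15 and 23 of 24 negative. In the replicate 2 pair all 24 were lower, but 19 of 24 were higher in the replicate 1 pair. Antigen presentation genes gave 0 calls of 17 by the same tests, and 0 at an unadjusted p under 0.05. Counts of 0 calls in these 2 lists are near the shares called by edgeR over all genes tested.

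The 7 endothelial markers tested summed to between 83.3 and 104 CPM in pMSCV and to between 135 and 336 CPM in SRF-RELA. Most of that was TEK, the angiopoietin receptor, at 60.4, 82.6 and 70.8 CPM against 105.5, 306 and 190.5 CPM (edgeR adjusted p 0.564, and 0.0178 with the block), while CLDN5 and ERG stayed at or under 0.133 CPM. Of 6 bone, fat and cartilage genes tested, ALPL, the alkaline phosphatase of bone and stromal cells, was called with the block, at 0.602, 0.516 and 1.28 CPM against 7.29, 11.6 and 9.53 CPM (edgeR adjusted p 0.0792 without the block and 0.0177 with it). Over all genes tested, 0.971% were called with the block.

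The 8 genes called lower with the block changed little in comparison, and none of them was called without it. The largest change among those with a mean of at least 1 CPM was that of DOK5, an adaptor of receptor tyrosine kinases, from 4.04, 2.54 and 1.42 CPM to 1.78, 0.701 and 0.585 CPM, with overlapping groups (log2 fold change -1.38 with the block, edgeR adjusted p 0.0220). FEZ1, a kinesin adaptor, measured 12.8, 22.5 and 15.5 CPM against 6.71, 9.26 and 7.77 CPM, without overlap (-1.02, edgeR adjusted p 0.0175 with the block and 0.0960 without it). PLIN2, which coats lipid droplets, fell by 0.47 on the log2 scale (edgeR adjusted p 0.0310 with the block), from 114, 61.2 and 79.9 CPM to 74.7, 42.3 and 59.4 CPM, with overlapping groups. ZNF385D, LMBR1 and BMERB1 had log2 fold changes of -0.72, -0.70 and -0.55 with the block (edgeR adjusted p 0.0228, 0.0285 and 0.0310 with it, and 1, 0.413 and 1 without it). The groups of ZNF385D and BMERB1 overlapped, and those of LMBR1 did not.

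To see how far these differences hold against raised SRF alone, SRF-RELA was compared with the SRF group, which uses the same 3 SRF-RELA libraries. There 72 genes were called (0.388% of those tested), 63 higher and 9 lower, and 321 with the block (1.73%), 233 higher and 88 lower. CMKLR1 was at 0.408, 0.880 and 0.833 CPM in SRF, a difference of 6.74 on the log2 scale from SRF-RELA (SE 0.67, edgeR adjusted p 0.000721). ACTG2 was at 2.52, 7.08 and 27.4 CPM in SRF, a difference of 4.34 (SE 0.81, edgeR adjusted p 0.0357), and IGFBP5 at 7.01, 4.17 and 3.54 CPM, a difference of 4.92 (SE 0.63, edgeR adjusted p 0.00323). LMOD1 was not like these: it was at 22.3, 24.1 and 20.4 CPM in SRF, around the SRF-RELA values, with a difference of -0.08 (SE 0.58, edgeR adjusted p 0.972). Likewise ALPL, at 6.45, 1.84 and 16.2 CPM in SRF, differed from SRF-RELA by 0.24 (SE 0.62, edgeR adjusted p 0.916). For CNN1 and TAGLN the edgeR adjusted p against SRF was 0.560 for each without the block, and 0.0538 and 0.0635 with it. Of the 20 smooth muscle genes, 3 were called higher than in SRF without the block and 7 with it.

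Against the mean of the other 3 fusions 6 genes were called (0.0324% of those tested), 5 higher and 1 lower, and 24 with the block (0.129%), 23 higher and 1 lower. RELA was higher by 1.54 (SE 0.06, edgeR adjusted p 4.56e-10). ICA1L was lower by 1.00, and its level in the SRF-ICA1L group was 153, 119.5 and 134 CPM against 15.2, 9.15 and 13.3 CPM in SRF-RELA. CDH3, ITIH3, CCDC190 and FOXRED2 were higher by 4.02, 3.46, 1.66 and 2.99. None of these 4 genes was called against each of the other fusions taken singly, a comparison chosen after the data were seen. CDH3, for example, measured 4.87, 20.4 and 10.1 CPM in SRF-FOXO1, 16.5, 38.1 and 30.6 CPM in SRF-ICA1L and 0.0348, 0 and 0 CPM in SRF-PDGFRB. Of the 24 genes, 23 were called with the block against SRF-PDGFRB, 6 against SRF-FOXO1 and 3 against SRF-ICA1L (RELA, ICA1L and ACTA1). ACTA1 stayed at 0.356, 0.556 and 0.250 CPM in SRF-ICA1L, against 8.13, 114 and 19.8 CPM in SRF-RELA (edgeR adjusted p 0.999, and 0.0171 with the block).

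Across the 34 genes called against pMSCV, the level in each group was set beside that in SRF-RELA as a description, since these genes were chosen by their SRF-RELA values. The median gene stood at 89.9% of its SRF-RELA level in SRF-ICA1L and at 67.7% in SRF-FOXO1, but at 7.8% in SRF-PDGFRB, 3.79% in SRF and 4.18% in pMSCV. The highest of the 6 group means was in SRF-RELA for 13 genes, in SRF-ICA1L for 12, in SRF-FOXO1 for 8 and in SRF for 1, which was SRF itself. The replicate pattern was alike in 3 of the fusions: CMKLR1 measured 41.1, 121.6 and 80.7 CPM in SRF-FOXO1 and 38.8, 104 and 70.6 CPM in SRF-ICA1L, beside 34.8, 116.1 and 71.1 CPM in SRF-RELA.

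**Figure D5:**
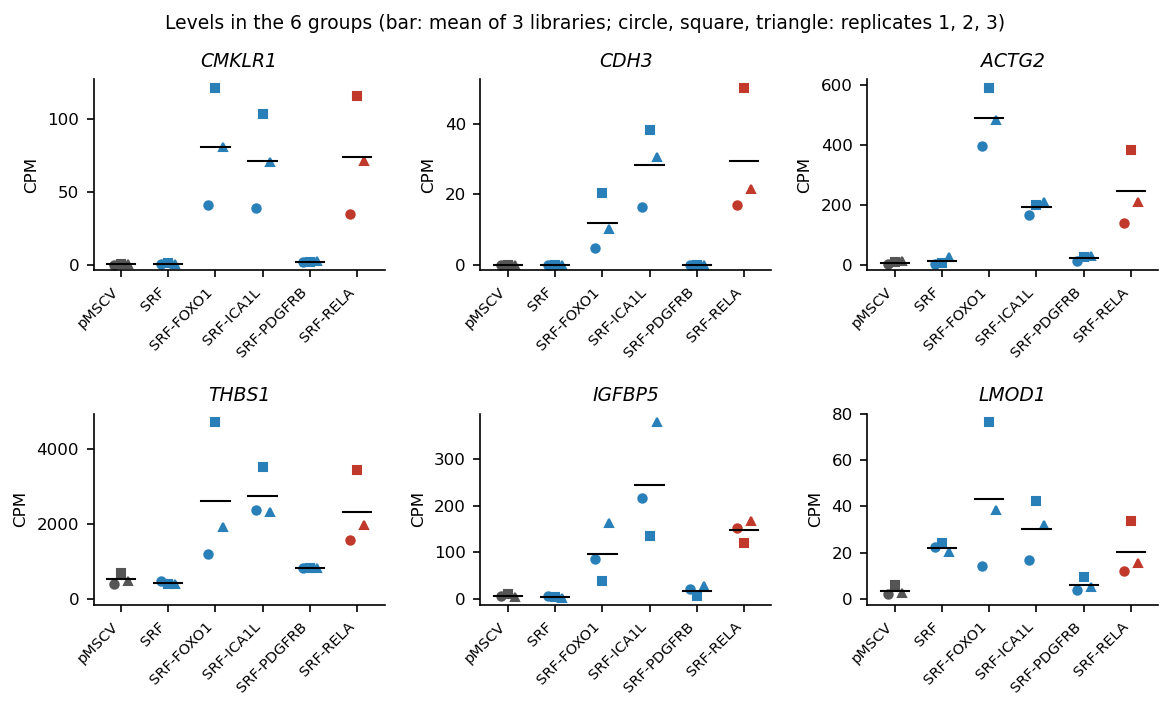
Levels of 6 genes in the 3 libraries of each of the 6 groups, in CPM on linear axes, with a bar at each mean and a symbol per replicate number. CMKLR1, CDH3, ACTG2, THBS1 and IGFBP5 are high in SRF-RELA, SRF-FOXO1 and SRF-ICA1L and lower in pMSCV, SRF and SRF-PDGFRB (in SRF-PDGFRB the means are 2.13 CPM for CMKLR1, 22.1 for ACTG2 and 18.5 for IGFBP5, above the pMSCV means of 0.508, 6.84 and 7.82), while LMOD1 is at 20.4 to 24.1 CPM in SRF as well.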

How the data were processed

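RNA of MSC-hTERT cells was made into stranded mRNA libraries and sequenced on an Illumina NovaSeq instrument, per the labels' protocols. The submitters' processing notes name FastQC 0.11.8, Trimmomatic 0.39, HISAT2 2.12.1, featureCounts of Subread 2.0.3 and build GRCh38. Neither the annotation release nor the strand setting of the counting is given in the sources used here. What the authors deposited is a table of unnormalized counts, per the file headers, with Ensembl identifiers in rows and libraries in columns.

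The table holds 61487 identifiers, 40522 with a count. Symbols came from a table of gene names for 61369 and from GENCODE release 29 for 105, and 13 had none. CPM uses library totals, without TMM factors. Genes were filtered by filterByExpr (minimum count 10), which left 18544, and scaled by TMM. A robust quasi-likelihood model in edgeR 4.0.16 (R 4.3.3) took in the 18 libraries, with the 6 groups as coefficients (12 residual degrees of freedom, common biological coefficient of variation 0.225). Contrasts were tested two-sided with Benjamini-Hochberg adjustment over all genes tested, and calls were made under an adjusted p of 0.05. The script was tested on simulated counts.

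The labels do not say what a replicate number marks. Deviations from the group means correlated at 0.392, 0.127 and 0.247 for SRF-RELA and pMSCV libraries of the same number, and at most at 0.0377 for different numbers, so the numbers were taken to pair the libraries, a pairing read from the values. The fit with the number as a block had 10 residual degrees of freedom and a coefficient of variation of 0.15.

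The comparison and the 23 gene lists were chosen with earlier results of these data known, so lists are described by counts and medians, without a list test. Named genes are RELA and SRF, up to 20 called genes of smallest p with a symbol, a mean of at least 1 CPM and groups that do not overlap, up to 10 further higher and 10 lower genes of the blocked fit, called members of each list or else its 4 most abundant members, and up to 5 per direction against the other fusions. ACTA2, MYH11, MYOCD, COL1A1, TTN, RELB, REL, NFKB1, NFKB2, CXCL2, CXCL10, CXCL1, PDGFB and the genes of the last section were named outside that rule, after their values were seen. For lower bounds, 0 counts stood for an upper limit of 3 counts per library. Promoters are 250 bases of the RefSeq table.

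Alternatives were the block, DESeq2 size factors, total count scaling, no filter, at least 10 counts in every library, a log2 fold change of at least 1, only the compared groups, the DESeq2 1.42.0 Wald test and leaving out libraries. Comparisons with single fusions and lists under each alternative were added after seeing the data. Some genes that meet these rules are not reported here.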

Additional observations from a re-analysis of the deposited data

Results flagged for a closer look

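There were 6 results that stood out because SRF-RELA differed from the mean of the other 3 fusions in a test of that difference. The log2 differences were 1.54 for RELA, 4.02 for CDH3, 3.46 for ITIH3, 2.99 for FOXRED2, 1.66 for CCDC190 and -1 for ICA1L (edgeR adjusted p from 4.56e-10 for RELA to 0.0434 for ITIH3, 3 libraries a group). Taken singly without the block, CDH3, ITIH3, FOXRED2 and CCDC190 were called against SRF-PDGFRB but not against SRF-FOXO1 or SRF-ICA1L. From SRF-ICA1L, CDH3 differed by 0.007 and ITIH3 by 0.23, and from SRF-PDGFRB by 10.8 and 6.31. ICA1L was called only against SRF-ICA1L, the fusion named after it, with a log2 difference of -3.49. FOXRED2, an endoplasmic reticulum protein, was low in every group, at 0.355, 0.806 and 0.836 CPM in SRF-RELA and at most 0.459 CPM in the other fusions. CCDC190 was at 5.38, 8.20 and 6.27 CPM in SRF-RELA, above each library of SRF-FOXO1 (2.68, 3.6 and 3.61 CPM), SRF-ICA1L (2.89, 2.57 and 4.30 CPM) and SRF-PDGFRB (0.731, 0.927 and 0.878 CPM). ITIH3 overlapped between SRF-RELA and SRF-ICA1L, where it measured 5.50, 17.1 and 7.26 CPM.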

How the results depend on the processing

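The comparison with pMSCV gave 34 calls, that with SRF 72 and that with the mean of the other fusions 6. With the replicate number as a block they became 180, 321 and 24. DESeq2 size factors, total count scaling and a log2 fold change of at least 1 kept each count within 1.5 times. Requiring at least 10 counts in every library, which removes genes silent in a control, left 6, 21 and 3. Without a count filter the third count was 12. Fitting only the compared groups, the first 2 counts were 9 and 12, and with the replicate block 188 and 131. The DESeq2 Wald test called 130, 214 and 18. Leaving out 1 library gave 10 to 47 calls against pMSCV, 13 to 56 against SRF and 1 to 13 against the other fusions. Against pMSCV the lowest was without pMSCV replicate 3, with 11 and 16 without pMSCV replicates 1 and 2, 13 without SRF-RELA replicate 2, and 23 and 47 without SRF-RELA replicates 3 and 1. In the fits with the replicate block, leaving out replicate number 1, 2 or 3 gave 127, 88 and 18 calls against pMSCV, 305, 69 and 43 against SRF, and 14, 8 and 6 against the other fusions. Of the 22 named genes called without the block, 9 were called in each of the 6 fits that left out 1 library: RELA, SRF, CMKLR1, CCDC190, CDH3, COL11A1, EXTL1, DUSP2 and PLN. No named gene that was called reversed direction under any alternative run. Pairing the libraries by number with the block lost 0 of the 34 calls and added 146, and its value is given beside the genes named above whose call it changed. The cause of the lower counts without single libraries was not tested. Depth limits the genes at 0 to 3 counts in pMSCV, for which only bounds or wide intervals can be given.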

Other observations

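The genes in this section were called only with the replicate block and were picked for naming after their values were seen. NOTCH3, a receptor of vascular smooth muscle cells, measured 3.54, 5.76 and 8.41 CPM in pMSCV and 10.6, 48.1 and 18.5 CPM in SRF-RELA (log2 fold change 1.85 with the block, edgeR adjusted p 0.0397; adjusted p 1 without it). CSPG4, a surface proteoglycan also called NG2, measured 22.3, 29.7 and 37.4 CPM against 46.7, 94.4 and 87.6 CPM (edgeR adjusted p 0.0497 with the block). ITGA7, a laminin receptor of muscle, measured 18.8, 33.1 and 14.9 CPM against 35.0, 91.5 and 50.6 CPM (edgeR adjusted p 0.0231 with the block), and METTL7B overlaps it on the opposite strand.

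HBEGF, a ligand of the EGF receptor, measured 9.84, 8.86 and 12.6 CPM in pMSCV and 14.3, 26.1 and 21.0 CPM in SRF-RELA (log2 fold change 1.00, edgeR adjusted p 0.0451 with the block). EGF, another ligand of that receptor, was low, at 0.567, 1.59 and 1.11 CPM against 1.55, 4.17 and 3.18 CPM (edgeR adjusted p 0.00933 with the block). LDB3, a Z-disc protein of striated muscle whose promoter in the RefSeq table holds a CArG box, measured 0.425, 0.516 and 0.312 CPM against 2.58, 17.2 and 5.06 CPM (edgeR adjusted p 0.00418 with the block).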
